A study of Danio rerio with 2 samples.

Results

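The genes described here encode the enzymes that write and erase chemical marks on histones, with the bromodomain proteins that read acetylated histones. They are the 96 of 24539 measured genes whose symbol, in any case, begins with kdm, kmt, setd, hdac, sirt, prmt, ezh or brd, or is kat followed by a number. Their transcripts were measured by RNA sequencing in testis and ovary of adult wild-type zebrafish, with 1 library per organ and 3 adults pooled in each library. The labels name no treatment and no mutation, and by its title the study sought genes and pathways biased to a sex. The deposited values are FPKM, fragments scaled to gene length and to the size of the library, so levels of different genes are compared per length. A value is also a share of its own library, and in a whole organ fewer cells of a type and less RNA per cell cannot be told apart. Since each organ has a single library, differences are described by size, without replicates and without p-values.

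Symbols written in capitals follow human genes, and 5 of them (BRD1, BRD8, KDM2B, KDM5B and KMT2C) are carried by 2 identifiers each, which are given by identifier below. The organ labels held against marker genes of germ cells, testis somatic cells and oocytes. Of 5 follicle cell markers only 2 were matched. Both went the other way, and whether these 2 mark follicle cells alone was not tested. All 6 markers of meiotic and germ cells and all 6 of testis somatic cells were higher in testis, such as SYCP3 at 457 FPKM against 5.88 in ovary. The germ cell marker DDX4 was also present in ovary, at 71.6 FPKM against 440 in testis. All 8 oocyte markers were higher in ovary, such as zp3b at 1099.7 FPKM against 6.55 in testis. Both matched markers of follicle cells were higher in testis, inha at 137 against 3.06 FPKM and FSHR at 4.72 against 0.07. Markers of other tissues were higher in testis too. All 13 measured markers of stroma, immune cells, erythrocytes and skeletal muscle had the higher value there, with summed levels of 500.3 against 16.8 FPKM for stroma, 172 against 8.27 for immune cells, 211 against 14.1 for erythrocytes and 114 against 3.10 for skeletal muscle. In ovary, the skeletal muscle marker pvalb4 was at the smallest value of the table. The part of these cells in the results on histone enzymes was not tested.

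Histones carry methyl and acetyl groups on lysine and methyl groups on arginine. Methyltransferases of the SET domain type add methyl groups to a given lysine of histone H3 or H4, and demethylases of the LSD and JmjC types remove them. Acetyltransferases add acetyl groups, histone deacetylases and sirtuins remove them, and bromodomain proteins bind to them. In the germ line these marks are known to change through meiosis, through the replacement of histones in spermatids and through the growth of the oocyte, whose stored transcripts and chromatin serve the early embryo.

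Most of these genes were expressed in both organs at moderate levels. Of the 96 genes, 84 reached 1 FPKM in both libraries (87.5%, against 48.9% of all genes), 8 in testis alone and 1 in ovary alone. Medians were 16.4 FPKM in testis and 13.0 FPKM in ovary, compared with 4.71 and 1.23 FPKM over all genes. The summed level of the 96 genes was 0.475% of all FPKM in testis, and in ovary it was 0.491%, a ratio of sums of 0.949. The highest level in testis was that of brdt, at 216 FPKM (rank 285 of 24539). In ovary it was that of kmt5ab, at 213 FPKM (rank 383).

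The call of a gene as higher in testis or ovary required values of FPKM + 1 at least 2-fold apart and at least 1 FPKM in the higher library. Ratios called log2 ratios are on the scale of log2(FPKM + 1), which understates those of low genes, while plain ratios are of the FPKM values themselves. Of the 93 genes that reached this minimum, 26 (28.0%) had their higher call in testis, 16 (17.2%) had it in ovary, and 51 (54.8%) lay within 2-fold. Over all 19053 genes that reached it, 45.1% were higher in testis and 16.6% in ovary. The share higher in testis was thus smaller than the background, whereas the share higher in ovary was close to it. The size of that gap depended on the value added to each FPKM. With 5 added in place of 1, 20.4% of the histone genes and 23.0% of all genes were higher in testis. The 93 log2 ratios, testis over ovary, had a median of 0.10 (quartiles -0.74 and 1.33), beside 0.80 (quartiles -0.51 and 1.80) over all genes. The ratios also spread less, with a standard deviation of 1.41 log2 units among the 93 genes and 2.0 among all genes, and 4 of the 93 (4.30%) passed 8-fold compared with 12.7% of all genes. The 3 genes under the minimum were kdm6bb (0.93 FPKM in testis, 0.09 in ovary), KAT2B (0.68 and 0.21) and prmt8b (0.79 and 0.34).

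**Figure D1:**
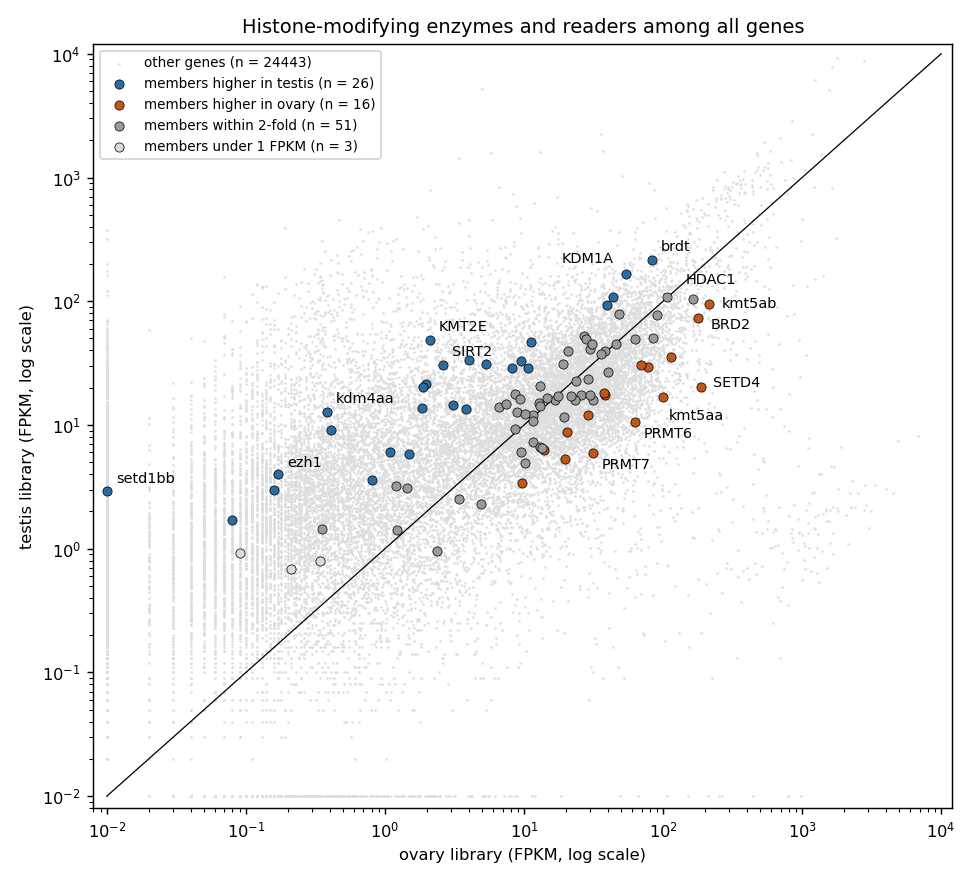
FPKM in the testis library against FPKM in the ovary library, both on log scales, for the 96 genes of histone modification (coloured by call) and all other genes (grey, n = 24443); each point is 1 gene in 1 library per organ and the line marks equal values. Of the 96 genes, 84 reached 1 FPKM in both organs; KMT2E, kdm4aa and SIRT2 lie well above the line and SETD4, kmt5aa and PRMT6 well below it.

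Low genes were more often higher in testis across the whole table, so the calls were also read by level. Of the 15 histone genes with a mean under 5 FPKM that reached the minimum, 53.3% were higher in testis, beside 61.1% of all genes at that level. From 5 to 20 FPKM the shares were 28.2% of 39 and 40.1%, from 20 to 50 FPKM 13.6% of 22 and 27.4%, and from 50 FPKM up 23.5% of 17 and 31.9%. The share was below that of all genes at each of the 4 levels. The shares higher in ovary, in the same order of levels, were 0% beside 6.78% of all genes, 12.8% beside 18.1% and 18.2% beside 27.7%. At 50 FPKM and above the order was the other way, with 7 of the 17 genes (41.2%) beside 28.4%. These 7 were kmt5ab, kmt5aa, SETD4, BRD2, brd3a, setdb1a and PRMT5.

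The split between the organs depended on how the libraries were scaled. Setting the median log2 ratio of all genes to 0, a shift of 0.80, left 13 testis calls and 36 ovary calls among the histone genes, where all genes had 25.1% and 30.3%. The trimmed mean of log ratios lowered the testis values by 0.98 log2 units and gave 14 and 35 of 91 genes, where all genes had 28.9% and 33.5%. Under each of the 3 scalings a smaller share of the histone genes than of all genes was higher in testis. The 16 ovary calls all held under both rescalings, which move every gene towards ovary, and 13 of the 26 testis calls did. The testis calls lost under at least 1 rescaling were kmt2bb, SETDB1, SETD3, KDM1A, kdm3b, KAT6B, HDAC8, HDAC7, HDAC5, SIRT5, PRMT8, brdt and the BRD1 identifier ENSDARG00000013596. Calls close to the limit were SETD7 (log2 ratio 0.99), KDM6A (0.98) and kdm4ab (-0.96) just inside 2-fold, and kdm6al (-1.01) and PRMT2 (-1.03) just outside.

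**Figure D2:**
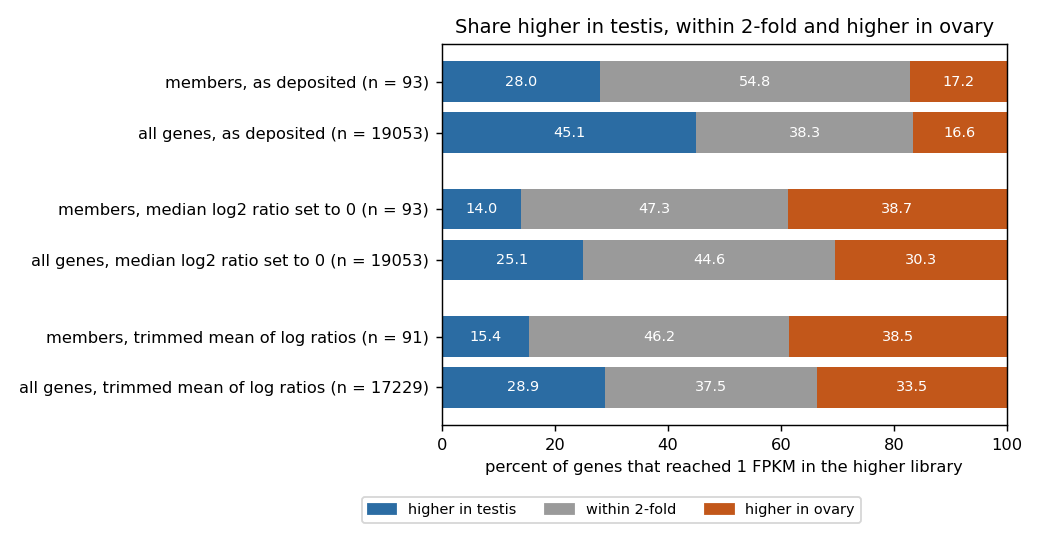
Percent of the histone genes and of all genes in each of 3 calls (testis, within 2-fold, ovary), out of those with at least 1 FPKM in either organ, with the values as deposited and after 2 rescalings. On the deposited scale 28.0% of the histone genes and 45.1% of all genes were higher in testis; after both rescalings more histone genes were higher in ovary than in testis.

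The writers of methylation on lysine 4 of histone H3, a mark of active promoters and enhancers, had a share of testis calls near that of the whole table. All 10 had a higher FPKM in testis than in ovary, and 4 (40%, beside 45.1% of all genes) were called higher in testis and none in ovary. Their median log2 ratio was 0.96, beside 0.80 over all genes. Their summed level was 120.5 FPKM in testis and 51.5 FPKM in ovary. SETD1B, the catalytic subunit of a COMPASS complex, was at 30.8 FPKM in testis, compared with 5.33 in ovary, a ratio of 5.78. Its relative setd1bb read 2.95 FPKM in testis and the floor of 0.01 in ovary. The KMT2C identifier ENSDARG00000079312, an enhancer methyltransferase, had 13.8 FPKM in testis against 1.84 in ovary, a ratio of 7.49. In ovary only setd1bb was at the floor, while SETD1B and this KMT2C identifier were above the median of all genes, 1.23 FPKM. For kmt2bb the values were 5.80 and 1.49 FPKM, and this was the remaining call. The 6 genes within 2-fold ranged in log2 ratio from 0.21 (kmt2ba, 15.0 and 12.8 FPKM) to 0.99 (SETD7, 14.0 and 6.57 FPKM), with setd1a (20.6 and 13.0), KMT2D (12.8 and 8.97), kmt2a (3.22 and 1.20) and the KMT2C identifier ENSDARG00000075560 (1.44 and 0.35) between. After the median ratio was set to 0 there were 3 testis calls and no ovary call in this class, and its median was 0.17.

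The genes for writers of repressive methylation on histone H3 did not share a direction. SETDB1, which methylates lysine 9 at silenced repeats and genes, was at 108 FPKM in testis, compared with 43.8 in ovary. Its relative setdb1a had the opposite call, at 29.5 FPKM in testis and 77.4 in ovary. The log2 ratio of SETDB1 came within 2-fold under both rescalings, at 0.48 with the median set to 0 and 0.31 with the trimmed mean. The opposite calls thus rest on the scaling. The sum of both was 137 FPKM in testis and 121 in ovary. The Polycomb enzyme EZH2, which methylates lysine 27, read 51.9 and 26.95 FPKM and was not called. The related ezh1 was far lower and was called higher in testis, at 3.99 against 0.17 FPKM. Among writers of lysine 36, which marks transcribed gene bodies, setd2 had 6.08 FPKM in testis against 9.51 in ovary and was within 2-fold.

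Writers of methylation on lysine 20 of histone H4 leaned towards ovary. Of 4 genes, 3 were higher in ovary (75%, beside 16.6% of all genes) and none in testis. The summed level was 363 FPKM in ovary against 141 in testis, a ratio of 2.58. The enzyme Kmt5a sets the single methyl group, a mark tied to mitosis and chromosome condensation. Its copy kmt5aa was at 100.1 FPKM in ovary, compared with 16.9 in testis, a ratio of 5.93. The other copy, kmt5ab, stood at 213 and 94.3 FPKM, a ratio of 2.26. Both copies were thus abundant in ovary, where they ranked 847 and 383 of all genes. KMT5B, which adds further methyl groups to the same lysine, had 38.3 FPKM in ovary against 17.4 in testis. For kmt5c, with the same known activity, the values were 11.7 and 12.1 FPKM. Both rescalings move every gene towards ovary, so they could not remove the 3 ovary calls. With a pseudocount of 5 in place of 1 those of kmt5aa and kmt5ab held, whereas KMT5B came within 2-fold.

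SET domain proteins whose substrates are not histones, or are uncertain, held the highest and the lowest log2 ratio among the 96 genes. KMT2E, which binds methylated histone H3 through its PHD finger and is not known as an active methyltransferase, was at 48.3 FPKM in testis, compared with 2.11 in ovary. The plain ratio was 22.9, below the 33.5 of kdm4aa and the 23.5 of ezh1. The log2 ratio, 3.99, was the top of the 96. SETD4 had the lowest, -3.15, at 20.1 FPKM in testis and 186 in ovary, a ratio of 9.27. With that level it ranked 427 in ovary and 5359 in testis. SETD3, which in mammals methylates a histidine of actin, was higher in testis at 28.7 against 10.7 FPKM. SETD9 was higher in ovary at 9.61 against 3.41 FPKM, a call lost with a pseudocount of 5. SETD5 (14.7 in testis, 7.38 in ovary) and SETD6 (10.8 and 11.7) were within 2-fold, and the class was divided 2 to 2. That is 33.3% in each organ, beside 45.1% in testis and 16.6% in ovary over all genes.

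**Figure D3:**
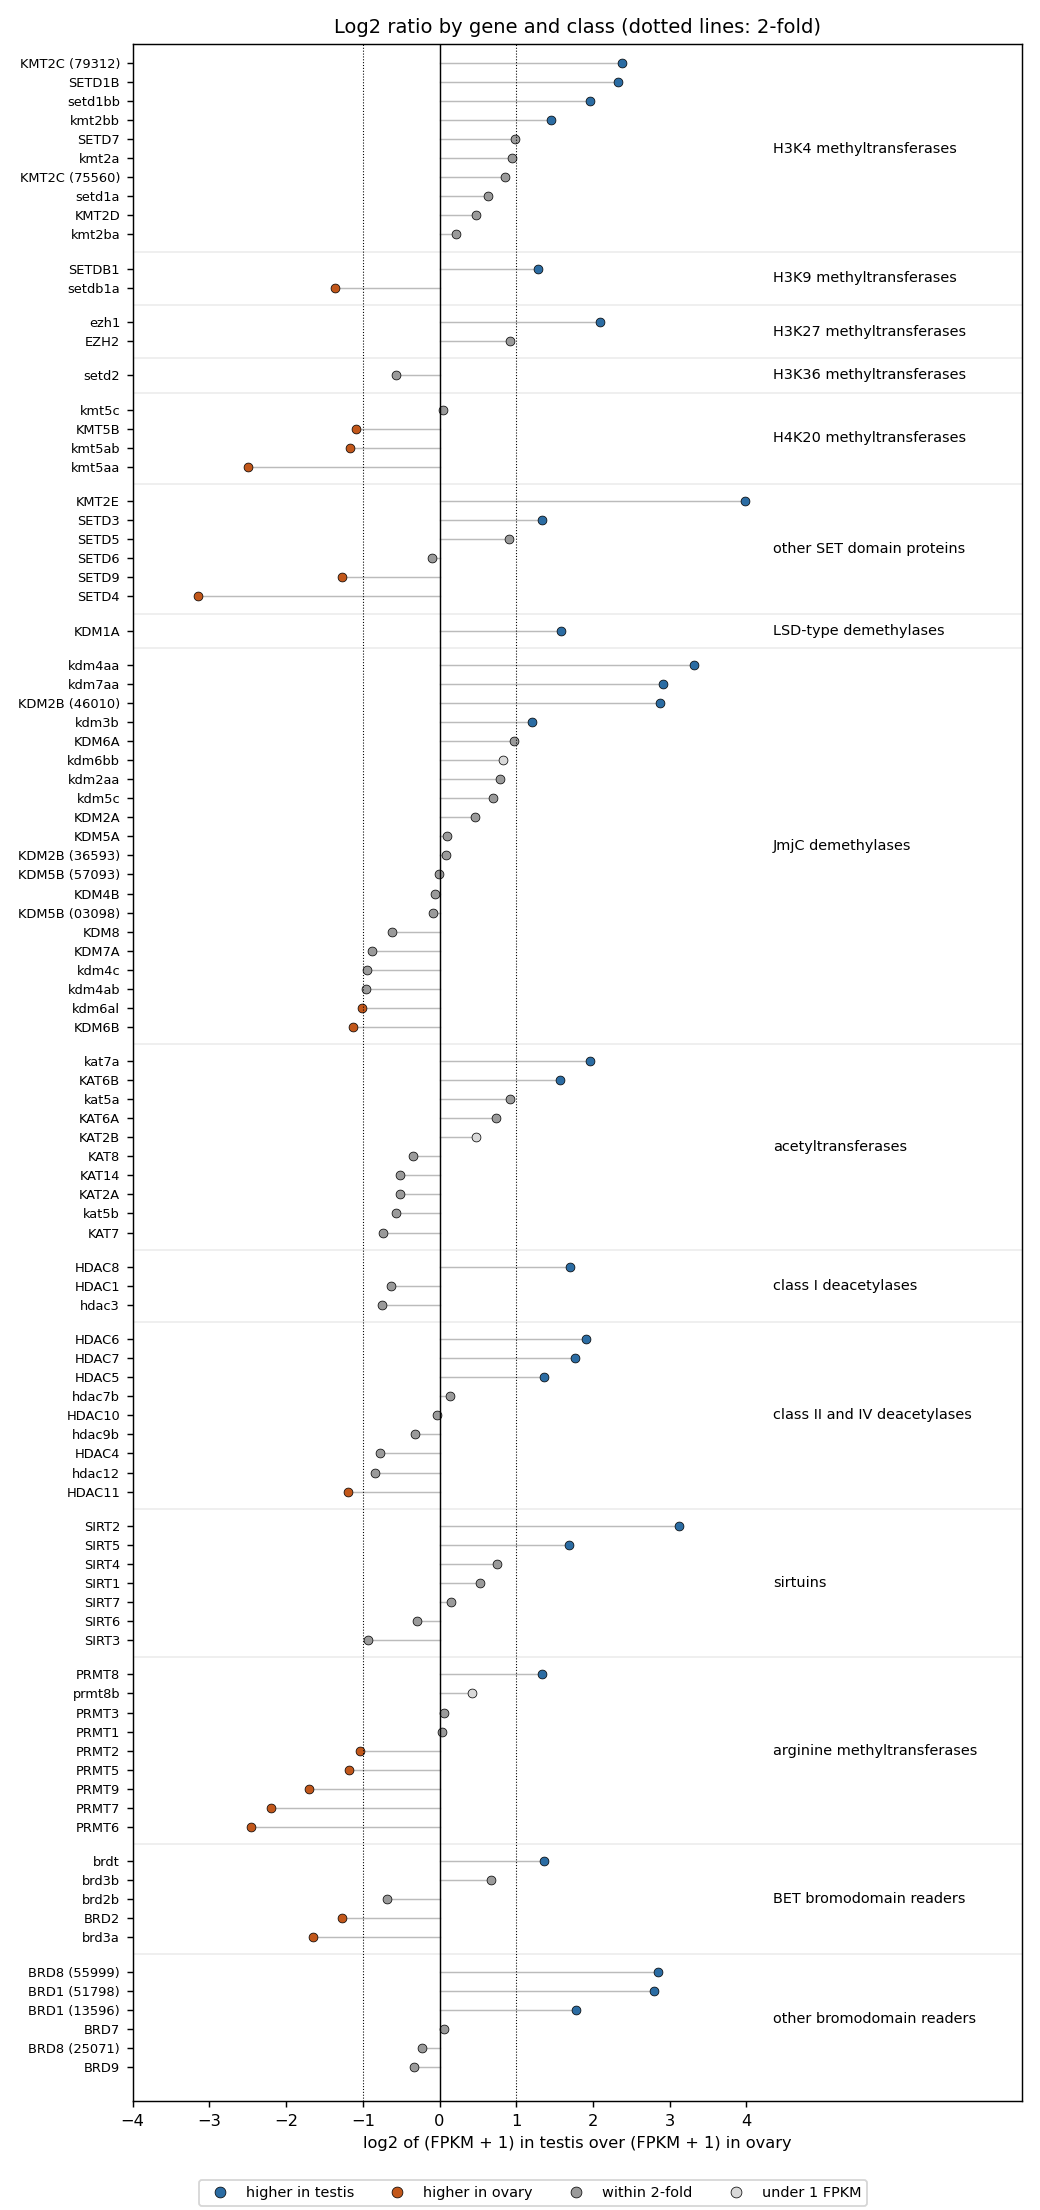
Difference in log2(FPKM + 1), testis minus ovary, for 95 of the 96 genes, grouped by class and ordered by ratio; each point is 1 gene, colours give the call, dotted lines mark 2-fold, and numbers in brackets are the last digits of the identifier where 2 identifiers share a symbol. All 10 writers of lysine 4 of histone H3 lie right of 0, while 3 of 4 writers of lysine 20 of histone H4 and 5 of 9 arginine methyltransferases lie left of the dotted line at -1.

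KDM1A had the highest testis FPKM among the erasers of lysine methylation, though not the widest ratio. This flavin-dependent demethylase, known as LSD1, removes methyl groups from lysine 4 of histone H3 together with RCOR corepressors. It stood at 165 FPKM in testis (rank 429) and 54.3 FPKM in ovary, a ratio of 3.04. Its log2 ratio of 1.59 came within 2-fold under both rescalings, at 0.79 after the median of all genes was centred on 0 and 0.61 after the trimmed mean. The RCOR genes, which belong to the deacetylase corepressors, did not follow a single direction. RCOR2 was higher in testis, at 151 against 43.3 FPKM, and RCOR1 was higher in ovary, at 79.8 against 12.3 FPKM. RCOR3 had 7.98 FPKM in testis against 5.64 in ovary.

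The JmjC demethylases, which use iron and oxoglutarate, were mostly within 2-fold. Of 20 genes, 19 reached the minimum, and their median was 0.08, beside 0.80 over all genes. Of these, 4 (21.1%, beside 45.1% of all genes) were higher in testis. Another 2 (10.5%, beside 16.6%) were higher in ovary, and 13 lay within 2-fold. After the median ratio of all genes was set to 0, the calls were 3 in testis and 6 in ovary, where all genes had 25.1% and 30.3%. The largest ratio was that of kdm4aa, a demethylase of lysines 9 and 36 of histone H3, at 12.7 FPKM in testis and 0.38 in ovary. That of kdm7aa, which acts on lysines 9 and 27, was 10.9, from 21.4 and 1.97 FPKM. The KDM2B identifier ENSDARG00000046010 stood at 20.2 and 1.89 FPKM; Kdm2b binds unmethylated CpG islands and recruits a Polycomb complex. Each of these 3 had a related gene that was within 2-fold, described with the duplicated genes. The abundant kdm3b, a demethylase of lysine 9, was higher in testis at 92.4 against 39.7 FPKM.

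The 4 genes of the KDM5 group, which remove methyl groups from lysine 4 of histone H3 and so oppose the writers of that mark, were all within 2-fold. Their log2 ratios lay between -0.08 and 0.70, and they summed to 154 FPKM in testis and 124 in ovary. The most abundant, kdm5c, was at 78.8 FPKM in testis, compared with 48.1 in ovary. The KDM5B identifiers ENSDARG00000057093 and ENSDARG00000003098 were nearly level, at 45.4 and 45.7 FPKM and at 15.8 and 16.8 FPKM in testis and ovary. KDM5A read 14.1 and 13.1 FPKM. The summed ratio of testis to ovary was 1.25 for these erasers and 2.34 for the writers of lysine 4. KDM1A, which also removes methyl groups from lysine 4, is not in the eraser sum. It was more abundant in testis than any KDM5 gene and its ratio was 3.04, so the contrast holds for the KDM5 group alone.

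The KDM6 group removes methyl groups from lysine 27 of histone H3. Of its 3 genes that reached the minimum, kdm6al (18.1 FPKM in testis, 37.5 in ovary) and KDM6B (8.84 and 20.5) were higher in ovary, though not with a pseudocount of 5. KDM6A, with 17.8 and 8.54 FPKM, lay just inside 2-fold. The remaining demethylases were KDM4B (22.9 and 23.8 FPKM), kdm4c (6.51 and 13.5), KDM8 (7.25 and 11.6), KDM2A (41.5 and 29.9) and kdm2aa (49.2 and 27.9), all within 2-fold.

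Histone acetyltransferases were divided evenly in level, with summed values of 277 FPKM in testis and 282 in ovary. Testis had 2 calls among the 9 genes that reached the minimum (22.2%, beside 45.1% of all genes) and ovary had none. The median was -0.35. The MYST enzyme gene kat7a had 46.7 FPKM in testis against 11.2 in ovary, and KAT6B had 13.3 against 3.84 FPKM. KAT7, which acetylates lysine 14 of histone H3 at replication origins and genes, read 50.3 and 84.4 FPKM. KAT8, which acetylates lysine 16 of histone H4, read 49.4 and 63.2 FPKM. These abundant enzymes had ovary values above their testis values without reaching 2-fold, as did kat5b (26.6 and 40.1 FPKM), the SAGA subunit KAT2A (16.0 and 23.2) and KAT14 (17.6 and 25.5). In kat5a (40.0 and 20.6) and KAT6A (16.3 and 9.38) the testis value was above. After the median ratio was set to 0, the class had 1 testis call and 5 ovary calls, so its direction rests on the scaling.

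Class I deacetylases are the catalytic subunits of nuclear corepressor complexes. HDAC1, the most abundant deacetylase here, was at 105 FPKM in testis, compared with 163 in ovary, and hdac3 read 17.4 and 30.1 FPKM. Both were within 2-fold. HDAC8, known for the deacetylation of cohesin, was higher in testis at 33.0 against 9.46 FPKM, a ratio of 3.48. Of the 9 class II and IV genes, 3 were higher in testis (33.3%, beside 45.1% of all genes) and 1 in ovary (11.1%, beside 16.6%). The other 5 lay within 2-fold, and most of the 9 were low. HDAC6, a cytoplasmic deacetylase of tubulin, had 14.4 FPKM in testis against 3.09 in ovary. HDAC7 (6.09 and 1.09) and HDAC5 (3.62 and 0.80), class IIa enzymes that bind tissue-specific transcription factors, were also higher in testis. HDAC11 was higher in ovary at 28.8 against 12.0 FPKM, though not with a pseudocount of 5. The polyamine deacetylase gene HDAC10 was level, at 17.1 and 17.6 FPKM, and hdac7b (1.42 and 1.21), hdac9b (2.54 and 3.42), HDAC4 (0.96 and 2.35) and hdac12 (2.29 and 4.87) lay under 5 FPKM in both libraries. After the median ratio was set to 0, class II and IV had 1 testis call and 4 ovary calls, where all genes had 25.1% and 30.3%.

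Sirtuins use NAD to remove acetyl and other acyl groups, many of them outside the nucleus. Among the 7 genes there were 2 testis calls (28.6%, beside 45.1% of all genes) and no ovary call. SIRT2, a mainly cytoplasmic deacetylase that acts on tubulin, was at 30.6 FPKM in testis, compared with 2.62 in ovary, a ratio of 11.7. SIRT5, a mitochondrial desuccinylase, stood at 28.6 and 8.22 FPKM. HDAC6 and SIRT2, both known as tubulin deacetylases, were thus both higher in testis, and both calls held under each rescaling. The mitochondrial SIRT3 had the lowest ratio of the class, at 4.90 and 10.2 FPKM, and SIRT4 read 3.12 and 1.45. The nuclear sirtuins were within 2-fold, with SIRT1 at 45.1 and 31.0 FPKM, SIRT6 at 23.4 and 28.8 and SIRT7 at 16.47 and 14.7. After the median ratio was set to 0 the sirtuins had 1 testis call and 2 ovary calls.

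Arginine methyltransferases leaned towards ovary more than any other class of at least 5 genes, by their median of -1.10. Among smaller classes, the 4 writers of lysine 20 of histone H4 had a lower median, -1.13. Of the 8 arginine methyltransferases that reached the minimum, 5 were higher in ovary (62.5%, beside 16.6% of all genes). Of the others, 1 was higher in testis (12.5%, beside 45.1%) and 2 lay within 2-fold. The summed level of the class was 342 FPKM in ovary against 209 in testis. PRMT6, which methylates arginine 2 of histone H3, had 62.7 FPKM in ovary against 10.6 in testis, a ratio of 5.94. PRMT7, which adds a single methyl group, stood at 31.1 and 5.97 FPKM, a ratio of 5.21. PRMT9, known to modify a splicing factor, stood at 19.7 and 5.34 FPKM. The larger ratios thus belonged to genes at middle levels. PRMT5, the main enzyme of symmetric dimethylation, whose targets include spliceosomal and Piwi proteins, was higher in ovary at 69.8 against 30.3 FPKM. PRMT2 was at 13.9 FPKM in ovary, compared with 6.29 in testis. The most abundant gene of the class was level, with PRMT1, the main enzyme of asymmetric dimethylation, at 108 FPKM in testis and 106 in ovary. PRMT3, which modifies a ribosomal protein, was level too, at 39.8 and 38.2 FPKM. PRMT8, known from brain, was called higher in testis at only 1.72 against 0.08 FPKM. CARM1, an arginine methyltransferase outside the naming rule, was higher in ovary (87.8 against 19.3 FPKM), while carm1l, chosen after its values were seen, was higher in testis (10.3 against 0.18). The 5 ovary calls could not be lost under the 2 rescalings, which move every gene towards ovary. With a pseudocount of 5 all but that of PRMT2 held.

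BET proteins bind acetylated histones with paired bromodomains and recruit the transcription machinery. The family was divided, with 1 gene higher in testis (16.7%, beside 45.1% of all genes), 2 in ovary (33.3%, beside 16.6%) and 3 within 2-fold. The gene brdt, whose mammalian relative is known from the testis and from the removal of histones in spermatids, had 216 FPKM in testis against 83.5 in ovary, a ratio of 2.59. It ranked 1081 of all genes in ovary, so it was not restricted to testis in these libraries. BRD2 was at 179 FPKM in ovary, compared with 73.4 in testis. The gene brd3a was also higher in ovary, at 113 against 35.3 FPKM. Within 2-fold were brd3b (31.1 in testis, 19.2 in ovary) and brd2b (11.7 and 19.5). On the rescaled values brdt fell within 2-fold, with a log2 ratio of 0.56 after the median was set to 0. Both ovary calls held, as rescalings that move every gene towards ovary cannot remove them.

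Bromodomain genes outside the BET family included 3 testis calls among 6 genes (50%, near the 45.1% of all genes) and no ovary call. The BRD1 identifier ENSDARG00000051798, a scaffold of MYST acetyltransferase complexes, had 33.7 FPKM in testis against 4.0 in ovary. The other BRD1 identifier, ENSDARG00000013596, was low, at 2.98 and 0.16 FPKM. The BRD8 identifier ENSDARG00000055999 stood at 9.15 and 0.41 FPKM, whereas the more abundant BRD8 identifier ENSDARG00000025071 read 77.4 and 90.8 FPKM. Both subunits of SWI/SNF remodelling complexes were within 2-fold, with BRD7 at 37.6 and 35.9 FPKM and BRD9 at 17.2 and 21.9. With the median ratio set to 0 there were 2 calls in each organ.

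**Figure D4:**
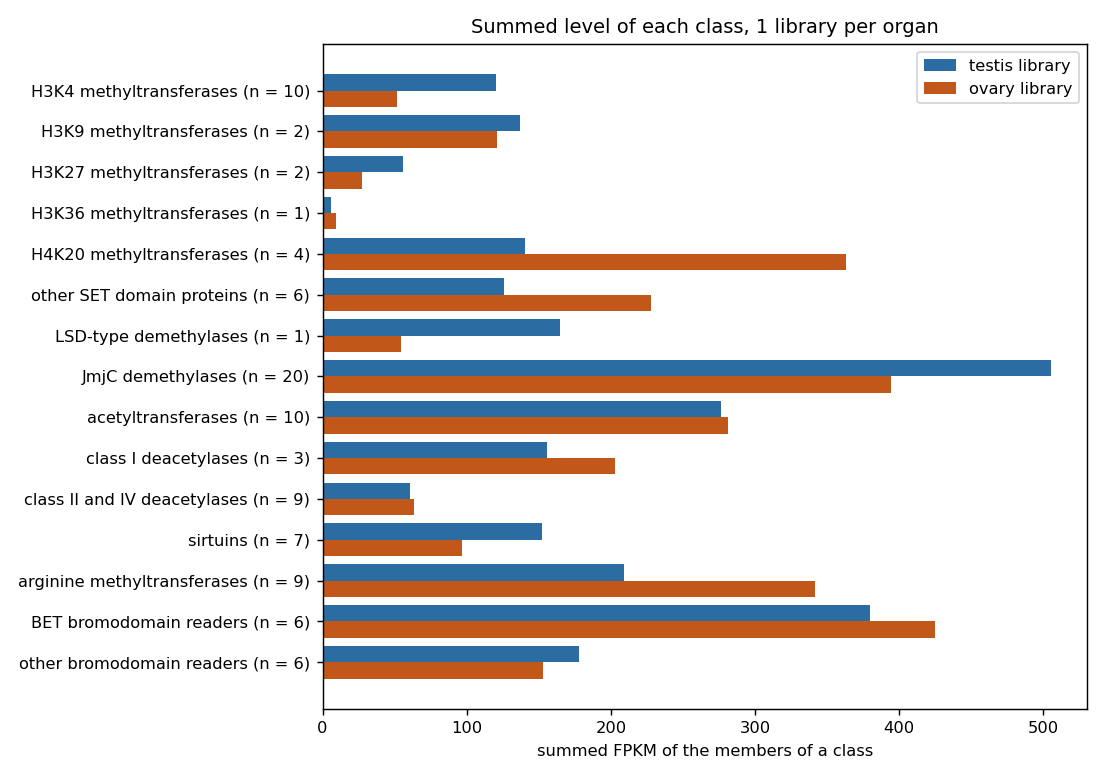
Summed FPKM of the genes of each of the 15 classes in the testis library and in the ovary library, with the number of genes in brackets; the bars start at 0 and there is 1 library per organ, so they carry no error bars. Writers of lysine 4 of histone H3 sum to 120.5 FPKM in testis and 51.5 in ovary, and writers of lysine 20 of histone H4 to 141 and 363.

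Many of these genes exist in more than 1 copy, since the ancestor of teleost fishes duplicated its genome. The 96 genes included 20 pairs of identifiers with the same stem, which took in 40 genes. Of these pairs, 5 ended in a and b, 5 carried the same symbol, and 10 joined a plain symbol with the same symbol and a closing letter; the last were matched on the symbol alone, and they and the pairs of the same symbol were added after the values were seen. In 11 pairs a single copy was called, 8 of them in testis and 3 in ovary. Testis calls also outnumbered ovary calls over all genes, 45.1% against 16.6%. Both copies were called in the same organ in 3 pairs, neither was called in 3, and 2 pairs had a copy under the minimum. The calls were opposite in 1 pair, SETDB1 and setdb1a, though not under either rescaling. A differing call is not always a wide gap: brd2b and BRD2, of which the second was called, were 0.58 log2 units apart, both towards ovary.

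In 7 pairs the ratios of the copies were over 4-fold apart. The widest gap was that of kdm4aa (12.7 FPKM in testis, 0.38 in ovary) and kdm4ab (15.8 and 31.6), 4.27 log2 units apart. Next came kdm7aa (21.4 and 1.97) and KDM7A (6.62 and 13.0), 3.79 units apart. In both pairs the testis library held the copies at similar levels or with the first ahead, while the ovary library held mainly the second. The BRD8 identifiers were 3.08 units apart and those of KDM2B 2.79. For KDM2B the copy within 2-fold, ENSDARG00000036593, was at 9.23 FPKM in testis, compared with 8.67 in ovary. The MYST genes kat7a and KAT7 were 2.70 units apart, SETDB1 and setdb1a 2.64, and brd3b and brd3a 2.32.

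Summed over both copies, 6 of these 7 pairs were within 2-fold on the log2(FPKM + 1) scale. The 7 were picked from these same values for the gap between their copies, so they do not stand for all 20 pairs. For kat7a and KAT7 the sum was 97.0 FPKM in testis and 95.6 in ovary. The BRD8 identifiers summed to 86.6 and 91.2 FPKM, and the kdm4a genes to 28.5 and 32.0 FPKM. The sums of SETDB1 and setdb1a are given above. Near the limit were the brd3 genes, at 66.4 and 133 FPKM, and the kdm7a genes, at 28.0 and 15.0 FPKM. The exception was KDM2B, at 29.4 and 10.6 FPKM. Among the 13 other pairs several sums were further apart, such as those of the BRD1 identifiers (36.7 and 4.16 FPKM), the KMT2C identifiers (15.2 and 2.19), SETD1B with setd1bb (33.8 and 5.34) and kmt5aa with kmt5ab (111 and 313). How the authors divided reads between similar copies is not given in the sources used here, so the values of single copies carry that uncertainty.

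**Figure D5:**
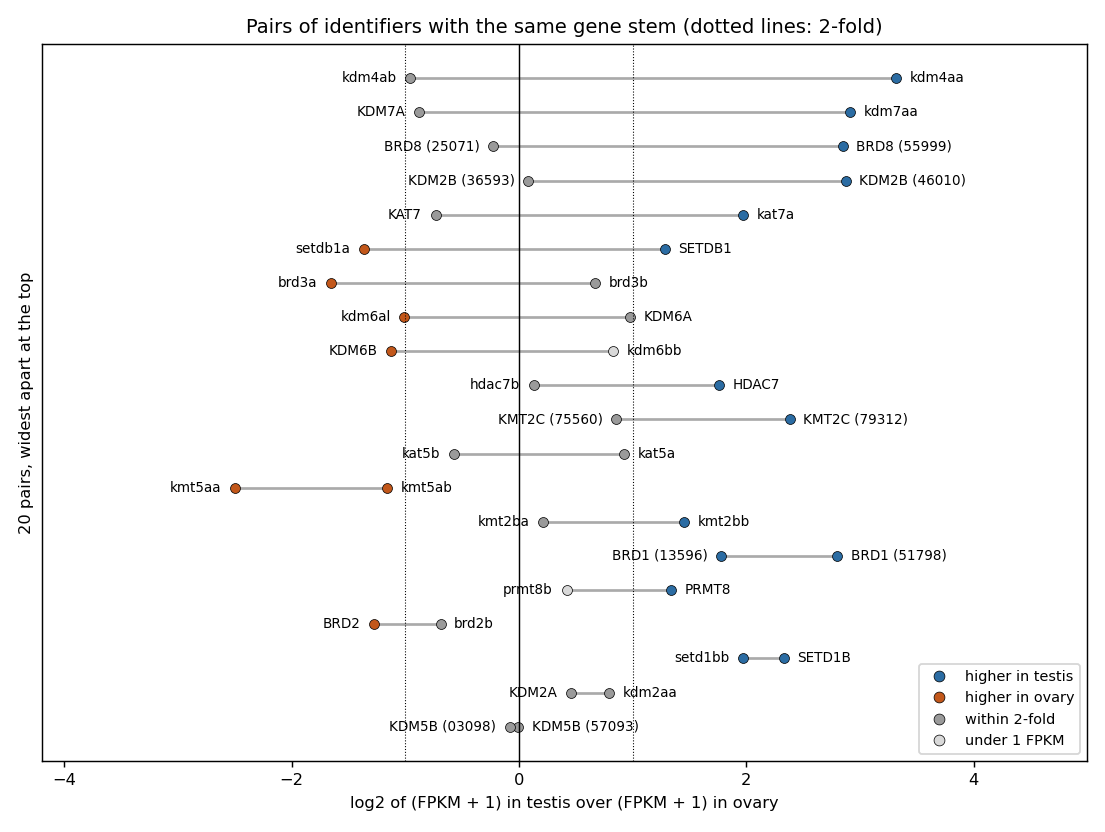
Difference in log2(FPKM + 1), testis minus ovary, for both identifiers of each of 20 pairs that share a gene stem, ordered by the distance between the copies; each point is 1 identifier, coloured by call, and dotted lines mark 2-fold. The copies of kdm4a lie 4.27 log2 units apart, those of KDM5B 0.07, and SETDB1 and setdb1a are called in opposite organs on the deposited scale.

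Partners of these enzymes were described from 7 lists of genes in the same complexes or of the same kind under other names, 160 genes in all. Of the 156 that reached 1 FPKM, 39 (25%) had a testis call, 31 (19.9%) an ovary call and 86 neither, with a median of 0.05. Over all genes 45.1% had a testis call and 16.6% an ovary call. The partner shares lay near those of the 96 histone genes. As there, they depended on the scaling: with the median ratio of all genes set to 0, the partner genes had 22 testis and 67 ovary calls. Each of the 7 lists had more ovary calls under that rescaling, and its counts are given with the list.

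Among partners of the COMPASS complexes, 3 of 14 were higher in testis and 3 in ovary, which is 21.4% each, beside 45.1% and 16.6% of all genes. With the median ratio set to 0 there were 7 ovary calls and no testis call. DPY30, a core subunit, had 197 FPKM in testis against 58.0 in ovary. WDR5, another core subunit, was at 107 FPKM in ovary, compared with 49.6 in testis. CXXC1, which binds CpG islands, was higher in ovary at 11.3 against 4.05 FPKM. The more abundant cxxc1b was within 2-fold, at 61.5 FPKM in ovary and 37.5 in testis. Of 27 Polycomb partners that reached the minimum, 7 were higher in each organ, which is 25.9% each beside the same 45.1% and 16.6% of all genes. After the rescaling 6 were higher in testis and 13 in ovary. PHF19, a Polycomb-like accessory subunit, had the widest ratio, at 56.1 FPKM in testis and 0.23 in ovary. The chromodomain gene cbx2 was higher in ovary at 24.5 against 4.33 FPKM. The abundant subunits RBBP4 (102 and 117 FPKM) and RNF2 (67.4 and 84.9) were within 2-fold.

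Other lysine methyltransferases, with CARM1 and carm1l, had 8 of 24 genes higher in ovary (33.3%) and 5 in testis (20.8%). Over all genes the shares were 16.6% and 45.1%. The list summed to 409 FPKM in ovary and 237 in testis. The rescaled counts were 11 in ovary and 4 in testis. Transcripts of ehmt1a, for a methyltransferase of lysine 9 of histone H3, had 27.4 FPKM in ovary against 2.19 in testis. The related EHMT1 was within 2-fold, at 11.5 FPKM in ovary and 18.3 in testis. NSD2, which methylates lysine 36, read 43.7 and 37.9 FPKM. The SMYD1 identifier ENSDARG00000009280, known from muscle, read 13.3 FPKM in testis and the floor in ovary, and the skeletal muscle markers were higher in testis as well; their part in this value was not tested. Among 11 other JmjC proteins there were 3 testis calls (27.3%) and 2 ovary calls (18.2%), beside 45.1% and 16.6% of all genes. After the rescaling the calls were 3 and 5, so which organ had more rests on the scaling. JMJD1C was at 22.4 FPKM in testis, compared with 1.00 in ovary. JMJD6 (24.3 against 11.1 FPKM) and riox1 (33.6 against 16.2) were higher in ovary, and the oxygen-sensing hydroxylase HIF1AN read 37.1 and 25.8.

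Of 30 other acetyltransferases and their partners that reached the minimum, 7 (23.3%) were higher in testis and 6 (20%) in ovary. Over all genes 45.1% and 16.6% were. After the rescaling the counts were 4 and 15. The BRPF3 identifier ENSDARG00000070513, a scaffold of KAT7, had 73.5 FPKM in testis against 3.67 in ovary. The other BRPF3 identifier was within 2-fold, at 5.84 and 9.96 FPKM. The reader gene ing5b was at 123 FPKM in ovary, compared with 26.3 in testis, while ing5a was within 2-fold, at 10.2 and 14.2. The NAA40 identifier ENSDARG00000024109, for an enzyme that acetylates the ends of histones, had 67.2 FPKM in testis against 110.1 in ovary. Of 27 deacetylase corepressors that reached the minimum, 6 (22.2%) were higher in testis, 2 (7.41%) in ovary and 19 within 2-fold. Both shares were below the 45.1% and 16.6% of all genes. After the rescaling there were 2 testis and 10 ovary calls, so which organ had more calls rests on the scaling. Beside the RCOR genes, tbl1xr1a was at 30.3 FPKM in testis, compared with 1.06 in ovary, and SAP18 read 83.6 and 146 FPKM. The copy tbl1xr1b was within 2-fold, at 20.4 FPKM in testis and 34.1 in ovary.

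The bromodomain proteins with other names had 8 testis calls (34.8%) and 3 ovary calls (13.0%) among 23 genes, beside 45.1% and 16.6% of all genes. Their median was the highest of the 7 lists, 0.91, beside 0.80 over all genes. The remodeller gene baz1a had 127 FPKM in testis against 51.6 in ovary. The ZMYND8 identifier ENSDARG00000007601 stood at 22.3 and 0.23 FPKM. On the ovary side, the SWI/SNF ATPase gene SMARCA4 (ENSDARG00000077226) stood at 82.6 FPKM against 37.3 in testis, and pbrm1l at 59.7 against 18.9. The related PBRM1 had the opposite call, at 25.8 FPKM in testis and 4.44 in ovary. With the median ratio set to 0, that list had 3 testis and 6 ovary calls, so which organ had more calls rests on the scaling.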

How the data were processed

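Per the labels' protocols, Trizol was used to extract the RNA of each pooled organ, and libraries were made for BGISEQ-500 sequencing. The submitters' processing notes name HISAT, Bowtie2, RSEM and the build GRCz10; their versions and settings and the handling of strand were not given in the sources used here. Per the file headers, the deposited values are FPKM, in 1 table with 24539 Ensembl identifiers and 2 libraries. Read counts were not used here and depth is unknown. Ratios of low values (1205 genes) piled up at 1, 2 and 3 times a step, 265 genes against 111 in equal windows between; from those steps, the FPKM of a single read was 1.09 times larger for the testis library. The smallest value, 0.01, was read as a floor, and no fold is given against it; 430 genes had it in testis and 3540 in ovary.

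A table of gene symbols named 21881 identifiers. The log2 ratio is the testis minus the ovary value of log2(FPKM + 1), computed over the whole table in Python 3.11.15 with pandas 2.3.3. The size rule and the trimmed mean (which left out 30% at both ends by ratio and 5% by abundance) were tested on simulated data. There was no test between the organs. Members, classes and lists were chosen with earlier results of these data known. Classes follow the known substrate or chemistry of the enzymes. Given in full are, of each class, the largest ratios among genes with at least 5 FPKM, the most abundant gene, and pairs over 4-fold apart; of each partner list, the 2 most abundant genes and the largest ratio towards each organ. The other members are given as well, except 1 gene that is counted but not reported here. Of 5 markers written for follicle cells, 2 were matched, and both (inha at 137 against 3.06 FPKM and FSHR at 4.72 against 0.07) were higher in testis. A planned comparison of protein and promoter sequences was not run, since no sequences were used here.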

Additional observations from a re-analysis of the deposited data

How the results depend on the processing

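With 1 library per organ, no replicate can be left out, and the spread between animals is unknown. No paired analysis was possible because each organ has a single library. Other pseudocounts (0.1 and 5), other minimums (none and 5 FPKM), removal of the 186 most abundant genes from the totals, and leaving out symbols of several identifiers kept the counts of histone genes higher in testis and in ovary within 1.5 times those reported, except 10 ovary calls with a pseudocount of 5, where KMT5B, SETD9, kdm6al, KDM6B, HDAC11 and PRMT2 were lost. Those 10 ovary calls were 10.8% of the histone genes that reached the minimum, beside 11.7% over all genes. A 4-fold rule gave 10 testis and 4 ovary calls, with 79 genes inside it. It left 5 classes with more testis than ovary calls, and 19 and 8 calls among the partner genes. At 4-fold, testis calls made up 10.8% for the histone genes, beside 21.6% over all genes. Ovary calls made up 4.30%, beside 6.19%. Setting the median log2 ratio to 0 gave 13 testis and 36 ovary calls and a median of -0.70. Then 2 classes had more testis than ovary calls, and 11 had more ovary than testis calls, compared with 9 and 3 on the deposited scale. The partner genes had 22 and 67 calls. The trimmed mean gave 14 and 35 calls, a median of -0.79, 3 and 11 classes, and 22 and 69 partner genes. No call turned to the other organ under any of the 8 alternatives of scale, minimum or fold. This could not have come out otherwise. A call needs at least 2-fold and each rescaling shifted the ratios by less. The pseudocounts, minimums and fold rule do not change which organ is higher. The same call was kept under both pseudocounts and all 3 rescalings by 11 testis genes (among them KMT2E, kdm4aa, SIRT2, HDAC6, SETD1B and kat7a) and 10 ovary genes (among them SETD4, kmt5aa, kmt5ab, PRMT5, PRMT6, PRMT7 and BRD2). None of the 3 rescalings could remove an ovary call, so only the pseudocount of 5 sorted the ovary genes. Depth limits the low genes, such as ezh1, setd1bb and PRMT8, most.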
